A study of Mus musculus with 6 samples.

Results

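The 36 genes described here encode proteins of megakaryocytes and of the platelets they release, and their RNA was followed in hematopoietic stem cells (HSCs) of irradiated and control mice. The genes were taken by name from a list of platelet receptors, granule proteins and signalling proteins. That list was chosen with earlier results of these data known. All 36 genes were found among the 21851 gene symbols of the tables. They were sorted by role into 14 receptors and surface proteins, 10 granule contents and secreted proteins, 6 proteins of the granule membrane or of granule formation, and 6 signalling and cytoskeletal proteins. HSCs of genotype WT (wild type) had been sorted from mouse bone marrow as lineage-negative cells with Sca-1, c-Kit and CD150 and without Flt3 and CD48. Ctrl stands for 3 libraries from control mice and IR for 3 libraries from mice given ionizing radiation. The sources used here give neither the dose nor the time after exposure, nor the age and sex of the mice, nor whether a library pooled several mice. Values are FPKM, which scales fragment numbers to transcript length and library size, so that levels of different genes can be set side by side per length.

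Megakaryocytes are the large bone marrow cells that shed platelets. Platelets adhere to damaged vessel walls through the GPIb-IX-V complex, which binds von Willebrand factor, and aggregate through the integrin that binds fibrinogen. Thrombin, thromboxane and nucleotides activate them through surface receptors, after which alpha granules and dense granules release their contents. A fraction of HSCs carries RNA of several of these genes, and platelet-biased HSCs are known to become more frequent with age.

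Between 10122 and 10212 genes reached 1 FPKM in a library, and depth estimated from the spacing of low values was 14300000 to 16300000 fragments. At that depth 1 FPKM on 1 kilobase of transcript equals some 14.3 to 16.3 fragments. A gene was tested when at least 3 of the 6 libraries reached 1 FPKM. Of the markers used for sorting, Kit lay between 94.8 and 98.5 FPKM, Slamf1 (which encodes CD150) between 3.14 and 3.95 FPKM in controls and between 4.58 and 5.46 FPKM in irradiated HSCs, and Ly6a (Sca-1) between 152 and 208 FPKM. RNA of the 2 markers of the negative gates was also present, with Cd48 at 343 to 403 FPKM and Flt3 at 124 to 127 FPKM in controls and 64.4 to 67.2 FPKM in irradiated HSCs. The stem cell genes Hlf, Mecom and Procr were detected in every library, while Fgd5 stayed under 1 FPKM.

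Irradiated HSCs held more RNA of most of the platelet genes that could be tested. At a threshold of 0.05 on the adjusted p of limma (Benjamini-Hochberg), 19 of 29 tested members rose and 4 fell, which left 6 without a call. Over all 10281 tested genes 25.8% rose and 28.9% fell, a called share of 54.7%. In 23 of the 29 the libraries of the groups did not overlap, against 61.7% of all tested genes. The median log2 fold change of the tested members was 0.25, the value of Ppbp, which was not called, where that of all tested genes was -0.01. It was 0.14 with a pseudocount of 5, 0.15 with a filter of 5 FPKM and 0.16 without a filter. The members ranged in control level from Timp3, above 0.72% of tested genes, to the granule proteoglycan gene Srgn, above 98.3% of them. In libraries made from many cells, more cells with a given RNA cannot be told apart from more of it per cell, nor fewer cells from less of it per cell.

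**Figure D1:**
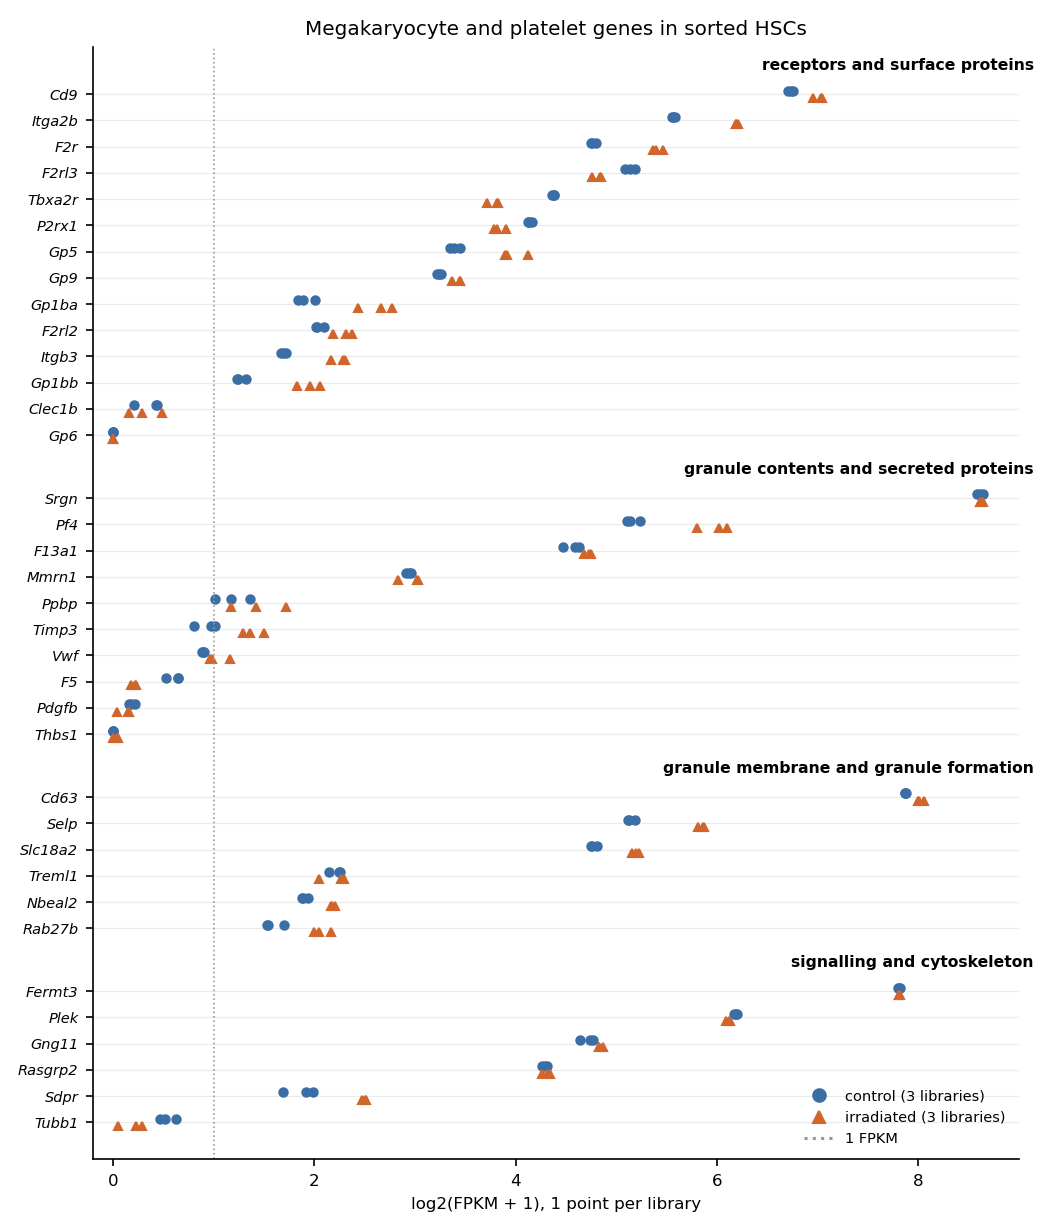
Level of each of the 36 genes as log2(FPKM + 1), with 1 point per library (circles, 3 control; triangles, 3 irradiated), grouped by role; the dotted line marks 1 FPKM. The irradiated libraries of Itga2b, Pf4 and Selp lie to the right of the controls, those of Tbxa2r, P2rx1 and F2rl3 to the left, and those of Srgn and Fermt3 among them.

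By role, the receptors held members that moved in both directions. Of 12 tested receptors and surface proteins 9 rose and 3 fell, so that every one was called, and their median log2 fold change was 0.42. Among 6 tested granule contents 3 rose (median 0.21), 1 of them Timp3, which reached the filter level in 1 control library. Among 6 proteins of the granule membrane or of granule formation 5 rose (median 0.35). None of these 12 tested genes fell, also at an unadjusted p under 0.05 in the limma fit; F5, a granule content under the filter, was lower and is described with the low members. In the signalling and cytoskeletal group 2 of 5 tested genes rose and 1 fell (median 0.02). Over all tested genes 25.8% rose and 28.9% fell. By size of change, 9 members rose and 1 fell by at least 0.5 on the log2(FPKM + 1) scale, whereas 183 of all tested genes rose and 389 fell by that much. The sizes of change were not compared between roles by a test.

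**Figure D2:**
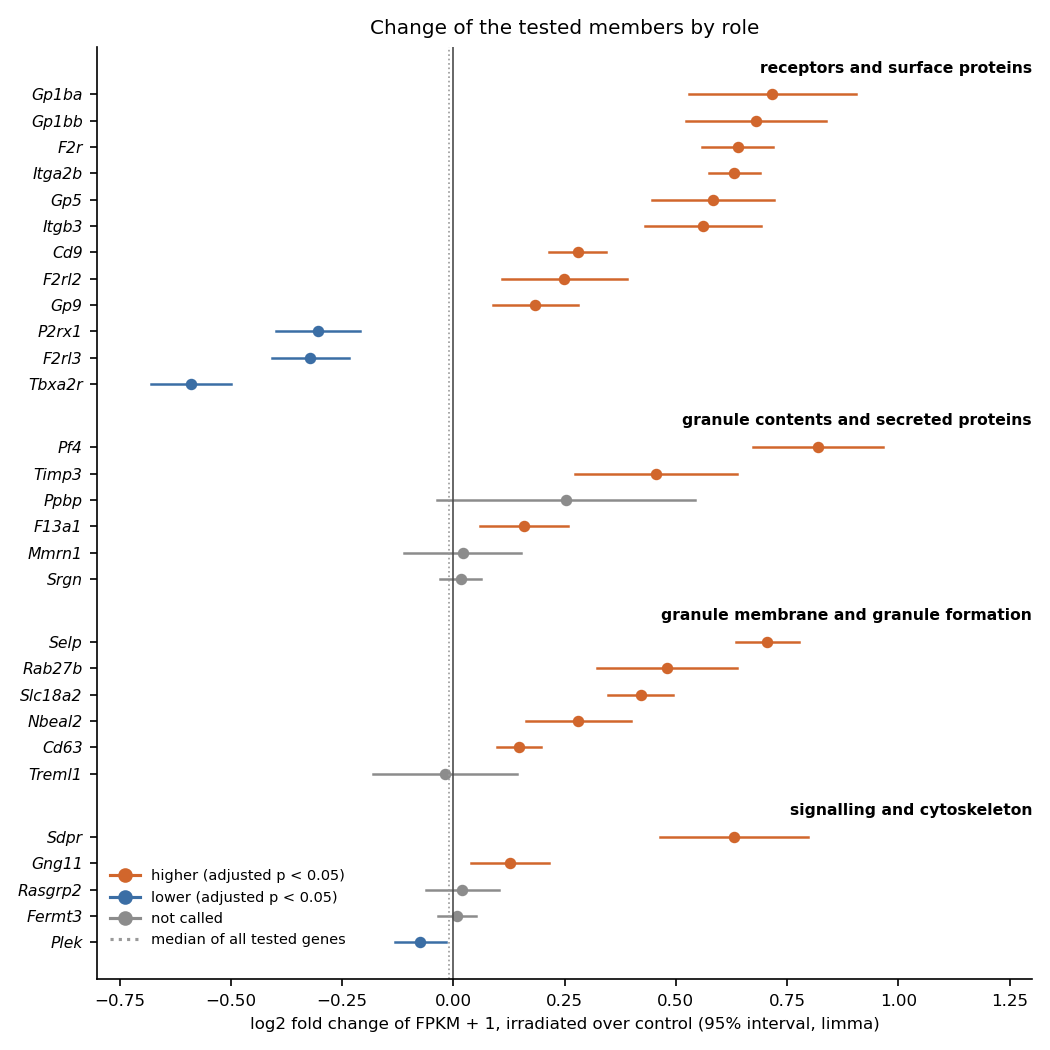
Log2 fold change of FPKM + 1, irradiated over control, for the 29 tested members by role, with the 95% interval of the limma fit; colours mark genes past the threshold, and the dotted line is the median of all tested genes, -0.01. Pf4 lies farthest right at 0.82 and Tbxa2r farthest left at -0.59.

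The 4 genes of the GPIb-IX-V complex all rose. This complex tethers platelets to von Willebrand factor, and its subunits are encoded by separate genes: Gp1ba carries the binding site, Gp1bb is joined to it, and Gp9 and Gp5 complete the assembly. Gp1ba (chromosome 11, 70639122 to 70642036, GRCm38) stood at 2.57, 3.01 and 2.71 FPKM in control replicates 1 to 3 and at 5.82, 5.35 and 4.42 FPKM in irradiated replicates 1 to 3. Its lowest irradiated library lay well above the highest control, and its mean rose 1.88-fold (log2 fold change 0.72, SE 0.084, adjusted p = 6.85e-05). Gp1bb (chromosome 16, 18620317 to 18622403) went from 1.36, 1.36 and 1.50 to 2.55, 3.15 and 2.87 FPKM, a 2.03-fold rise (log2 fold change 0.68, adjusted p = 2.95e-05). It overlaps Sept5 and Gm49601 on the same strand, so its reads may be shared with those genes. Their part in the rise of Gp1bb was not tested. Gp5 (chromosome 16, 30307685 to 30310779) rose 1.55-fold, from 9.47, 9.20 and 9.93 to 14.1, 16.5 and 13.9 FPKM (adjusted p = 3.40e-05). Gp9 (chromosome 6, 87778072 to 87779768) had the smallest change of the 4, from 8.30, 8.42 and 8.57 to 9.36, 9.90 and 9.89 FPKM. That is a 1.15-fold rise with a log2 fold change of 0.18 (95% interval 0.09 to 0.28), below the intervals of Gp1ba (0.53 to 0.90), Gp1bb (0.52 to 0.84) and Gp5 (0.45 to 0.72). Per length, Gp9 and Gp5 stood above Gp1ba and Gp1bb in all 6 libraries.

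The sequences before the starts of these genes show which letters the genes of 1 complex share, and those of Selp and F2rl3, described further on, set a riser without a GATA match and a faller with one beside them. Each is the stretch of 250 bases before the RefSeq start, 5′ to 3′ on the strand of the gene (GRCm38.p6): chr11:70638872-70639121 (plus) for Gp1ba, chr16:30310782-30311031 (minus) for Gp5, chr6:87777820-87778069 (plus) for Gp9, chr1:164115014-164115263 (plus) for Selp and chr8:72761409-72761658 (plus) for F2rl3. Capitals mark GATAA or its reverse complement TTATC, the core letters bound by GATA factors, and AGGAAG or its reverse complement CTTCCT, letters bound by ETS factors.
Gp1ba: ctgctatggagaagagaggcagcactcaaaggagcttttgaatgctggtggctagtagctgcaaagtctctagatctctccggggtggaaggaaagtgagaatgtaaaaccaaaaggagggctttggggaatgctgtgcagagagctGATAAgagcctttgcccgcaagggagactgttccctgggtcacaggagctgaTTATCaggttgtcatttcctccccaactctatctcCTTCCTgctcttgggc
Gp5: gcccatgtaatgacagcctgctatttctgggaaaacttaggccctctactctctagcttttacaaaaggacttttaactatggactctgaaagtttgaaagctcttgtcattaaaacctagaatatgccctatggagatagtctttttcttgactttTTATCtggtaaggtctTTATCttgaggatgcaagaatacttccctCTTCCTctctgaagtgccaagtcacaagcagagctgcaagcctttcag
Gp9: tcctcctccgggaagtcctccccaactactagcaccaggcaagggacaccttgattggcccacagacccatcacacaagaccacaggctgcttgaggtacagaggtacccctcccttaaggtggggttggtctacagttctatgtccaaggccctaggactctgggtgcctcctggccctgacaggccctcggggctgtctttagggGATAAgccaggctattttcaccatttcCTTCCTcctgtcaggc
Selp: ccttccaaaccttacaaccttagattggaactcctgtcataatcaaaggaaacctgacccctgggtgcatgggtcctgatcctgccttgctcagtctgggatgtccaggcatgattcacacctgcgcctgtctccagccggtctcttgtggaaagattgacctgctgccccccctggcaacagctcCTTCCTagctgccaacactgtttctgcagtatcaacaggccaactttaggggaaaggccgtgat
F2rl3: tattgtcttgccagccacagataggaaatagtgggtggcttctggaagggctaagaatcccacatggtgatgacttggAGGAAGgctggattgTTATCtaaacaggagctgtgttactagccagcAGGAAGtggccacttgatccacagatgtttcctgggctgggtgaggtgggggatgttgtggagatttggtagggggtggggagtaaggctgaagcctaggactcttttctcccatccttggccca
GATAA on either strand began 103 and 51 bases before the start of Gp1ba, 93 and 77 before that of Gp5 and 43 before that of Gp9. The window of Gp1bb held neither motif and that of Selp held AGGAAG alone. F2rl3, which fell, carried GATAA 157 bases before its start and AGGAAG at 2 places. Windows were found for 30 of the 36 members, 34 in all. GATAA was present in 13 of the 34 (38.2%), in 22.6% of all 32851 windows of the table and in 15.2% of the 10179 windows of tested genes. AGGAAG was present in 18 (52.9%), against 29.5% of all windows and 28.7% of those of tested genes. Among members that rose, 7 of 17 windows held GATAA and 14 held AGGAAG, and among members that fell 3 of 5 held GATAA and 2 held AGGAAG. A match of GATAA can share letters with a match of AGGAAG, and a match is a description of the sequence, not a bound site.

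Both subunits of the fibrinogen receptor rose. Itga2b, the alpha subunit (chromosome 11, 102453297 to 102470122), stood at 46.2, 47.0 and 45.9 FPKM in controls and at 71.9, 72.1 and 73.2 FPKM in irradiated HSCs. The replicates lay within 2 FPKM of each other, and the rise was 1.56-fold (log2 fold change 0.63, SE 0.026, adjusted p = 6.74e-08). Itgb3, the beta subunit (chromosome 11, 104608000 to 104670476), went from 2.29, 2.21 and 2.18 to 3.95, 3.49 and 3.86 FPKM, a 1.69-fold rise (adjusted p = 3.17e-05). Within each library the log2 ratio of Itga2b to Itgb3 was 3.84, 3.90 and 3.88 in controls and 3.88, 4.02 and 3.93 in irradiated HSCs. These ratios overlapped between the groups, and their means differed by 0.07 (exact permutation test, 2-sided, p = 0.3; 3 against 3 libraries cannot go below 0.1). With a pseudocount of 0.1 the difference had the other sign, -0.09 (exact permutation p = 0.2), and so it did with scaling to a sum of 1000000 (-0.01). It was 0.31 with a pseudocount of 5 and 0.10 without irradiated replicate 1 (exact permutation p = 0.1 each). An equal change of both subunits is therefore not shown. Cd9, a tetraspanin abundant on platelets and also on stem cells and mast cells, rose 1.22-fold from 107, 105 and 103 to 123, 130 and 131 FPKM (adjusted p = 2.97e-05).

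The agonist receptors split by gene. F2r encodes the thrombin receptor PAR1, which is known from human rather than mouse platelets (chromosome 13, 95601803 to 95618487). It rose 1.58-fold, from 26.9, 25.8 and 26.2 to 40.1, 41.1 and 43.3 FPKM (log2 fold change 0.64, SE 0.036, adjusted p = 5.35e-07). F2rl2, the cofactor receptor PAR3 that presents thrombin to PAR4 on mouse platelets, rose 1.25-fold from 3.07, 3.04 and 3.26 to 3.55, 4.20 and 3.98 FPKM (adjusted p = 0.00715). It lies inside Iqgap2 on the opposite strand, which stood at 23.3 to 25.3 FPKM. F2rl3 encodes PAR4, the thrombin receptor that signals on mouse platelets (chromosome 8, 72761880 to 72763874), and moved the other way. It was 34.2, 32.9 and 35.4 FPKM in controls and 27.6, 26.0 and 27.8 FPKM in irradiated HSCs, 1.26-fold lower (log2 fold change -0.32, SE 0.039, adjusted p = 7.75e-05). Per length, the control libraries thus held more F2rl3 than F2r, and the irradiated libraries more F2r than F2rl3, in 3 of 3 libraries each. This order rests on the transcript lengths used. Fragments worked back from FPKM with the longest annotated transcript, which are not a separate count, put F2r above F2rl3 in the controls too. They were about 1257 to 1404 against 885 to 939 per library.

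Tbxa2r, the thromboxane receptor (chromosome 10, 81328731 to 81335172), had the largest fall among the tested members. It stood at 19.9, 19.6 and 19.9 FPKM in controls and at 13.2, 13.1 and 12.2 FPKM in irradiated HSCs, 1.54-fold lower (log2 fold change -0.59, SE 0.040, adjusted p = 2.02e-06). By size of fall it was rank 265 of the 10281 tested genes. P2rx1, the ATP-gated cation channel of platelets (chromosome 11, 72999103 to 73015200), was 1.25-fold lower, at 16.4, 16.5 and 16.9 FPKM against 12.8, 14.0 and 13.1 FPKM (log2 fold change -0.30, adjusted p = 0.000196). The groups did not overlap in either gene. The ADP receptor gene P2ry1, from the wider list below and named after its values were seen, rose from 1.89 to 3.29 FPKM (log2 fold change 0.57, adjusted p = 0.000103).

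**Figure D3:**
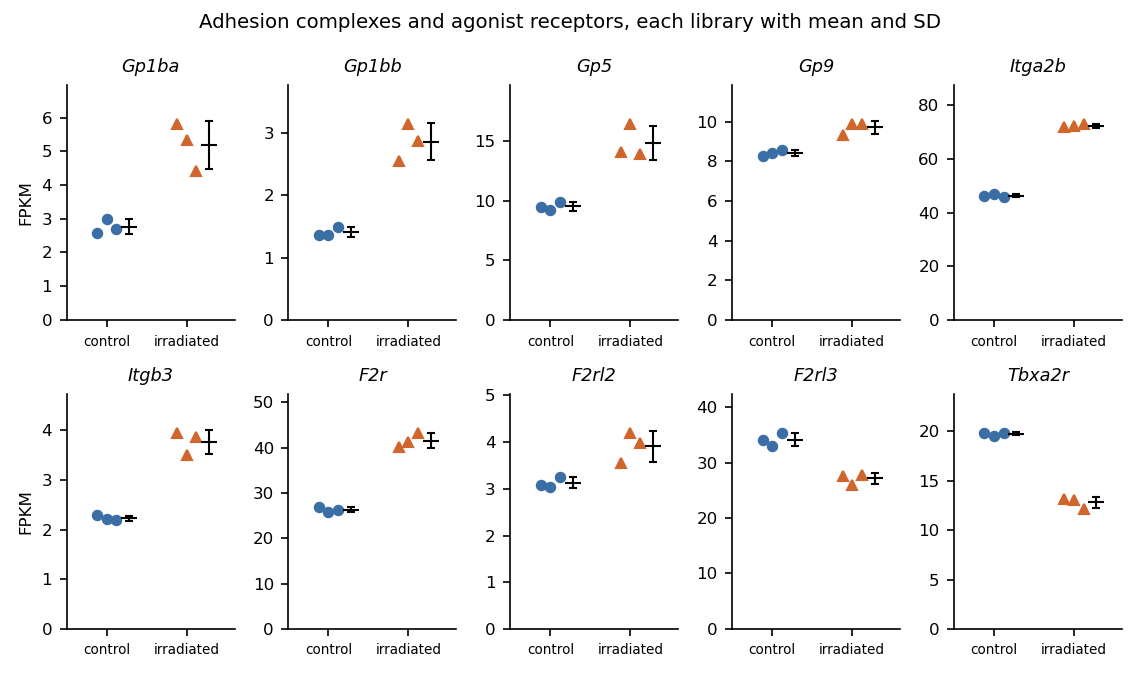
FPKM in each library (circles, control; triangles, irradiated; bars, mean ± SD of 3 libraries) for the GPIb-IX-V genes, the fibrinogen receptor subunits, the protease-activated receptors and the thromboxane receptor, each axis starting at 0. Gp1ba, Gp1bb, Gp5, Gp9, Itga2b, Itgb3, F2r and F2rl2 are higher in every irradiated library, and F2rl3 and Tbxa2r are lower in every one.

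Of the granule contents past the filter Pf4, Timp3 and F13a1 rose. Pf4, platelet factor 4, a chemokine that alpha granules store (chromosome 5, 90772435 to 90773383), was at 36.6, 33.4 and 34.1 FPKM in controls and at 55.0, 67.4 and 64.0 FPKM in irradiated HSCs. This 1.79-fold rise (log2 fold change 0.82, SE 0.065, adjusted p = 5.33e-06) was the largest among the tested members on the log2(FPKM + 1) scale, where it had rank 39 of all tested genes. By the ratio of means Gp1bb and Gp1ba rose more, and with a pseudocount of 0.1 their log2 fold changes of 0.97 and 0.88 exceeded the 0.84 of Pf4. Ppbp, its neighbour on the chromosome (90768518 to 90770063) and the precursor of another platelet chemokine, was much lower, at 1.56, 1.25 and 1.02 FPKM against 2.28, 1.25 and 1.67 FPKM. Its groups overlapped, and it was not called (log2 fold change 0.25, 95% interval -0.04 to 0.54, adjusted p = 0.125). These values rest on about 16 to 39 fragments per library. Single libraries moved this value: the log2 fold change was 0.39 without irradiated replicate 2, which called it (limma, adjusted p = 0.0222), 0.17 without control replicate 3 (adjusted p = 0.328) and 0.11 without irradiated replicate 1 (adjusted p = 0.435). The replicate block called it as well (adjusted p = 0.0471).

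Other stored or secreted proteins held rises and values without a call. F13a1, the catalytic subunit of the clot-crosslinking factor XIII and also a gene of monocytes, rose 1.12-fold from 23.8, 23.1 and 21.2 to 25.5, 25.9 and 24.7 FPKM (adjusted p = 0.0125). Timp3, a matrix metalloproteinase inhibitor, went from 0.968, 1.01 and 0.741 to 1.45, 1.56 and 1.83 FPKM (log2 fold change 0.46, adjusted p = 0.00102), with 1 control library at or above the filter level. It lies inside Syn3 on the opposite strand, which stood at 0.286 to 0.359 FPKM. Mmrn1, which encodes the factor V carrier multimerin, was at 6.54, 6.67 and 6.78 and at 7.15, 7.09 and 6.11 FPKM, and Srgn, which encodes the granule proteoglycan serglycin, at 383, 391 and 399 and at 399, 398 and 391 FPKM. Neither was called, and the 95% intervals of their log2 fold changes were -0.11 to 0.15 and -0.03 to 0.06.

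Genes of the granule membrane and of granule formation mostly rose. Selp, the adhesion protein P-selectin that platelets expose on activation (chromosome 1, 164115264 to 164150026), was at 35.4, 33.7 and 34.0 FPKM in controls and at 57.8, 57.0 and 55.2 FPKM in irradiated HSCs, 1.65-fold higher (log2 fold change 0.71, SE 0.032, adjusted p = 1.31e-07). Slc18a2, the transporter that loads serotonin into dense granules (chromosome 19, 59260896 to 59296012), rose 1.35-fold from 25.9, 27.0 and 26.0 to 35.6, 36.3 and 34.7 FPKM (adjusted p = 4.71e-06). Both also serve other cells, Selp endothelium and Slc18a2 mast cells and basophils. Rab27b, a small GTPase of granule secretion, rose 1.59-fold from 1.90, 1.88 and 2.24 to 3.47, 2.98 and 3.12 FPKM (adjusted p = 0.000281). Nbeal2, which alpha granules need to form and which is lost in grey platelet syndrome, rose 1.29-fold from 2.83, 2.69 and 2.67 to 3.48, 3.60 and 3.50 FPKM (adjusted p = 0.00131). Cd63, a tetraspanin of lysosomes and dense granules, rose 1.11-fold from 235, 233 and 233 to 266, 256 and 254 FPKM (adjusted p = 0.000335). Treml1, a receptor of the alpha granule membrane known from megakaryocytes and platelets, was not called, at 3.79, 3.74 and 3.44 FPKM against 3.80, 3.90 and 3.12 FPKM (95% interval -0.18 to 0.14).

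Among the signalling and cytoskeletal genes past the filter Sdpr and Gng11 rose and Plek fell. Sdpr, which encodes the caveolar protein cavin-2 (chromosome 1, 51289126 to 51302960), rose 1.75-fold from 2.97, 2.23 and 2.77 to 4.69, 4.70 and 4.54 FPKM (log2 fold change 0.63, adjusted p = 7.19e-05). It lies inside 9330175M20Rik, annotated as antisense to it. Gng11, a G protein gamma subunit, rose 1.09-fold from 26.2, 23.9 and 25.8 to 27.5, 27.4 and 28.2 FPKM (adjusted p = 0.0195), and was not called without control replicate 2 (adjusted p = 0.0740) or without irradiated replicate 3 (adjusted p = 0.0629). Plek, which encodes the protein kinase C substrate pleckstrin, was 1.05-fold lower, at 70.9, 72.7 and 71.9 FPKM against 69.2, 67.0 and 68.5 FPKM (log2 fold change -0.07, adjusted p = 0.0331). That call was lost under 7 of the 15 alternatives, among them the replicate block (adjusted p = 0.0651) and scaling to a common median (adjusted p = 0.138). Cnrip1, which overlaps Plek on the opposite strand, stood at 16.7 to 18.2 FPKM in controls and 10.1 to 12.4 FPKM in irradiated HSCs; its part in the value of Plek was not tested. The integrin activator kindlin-3 (Fermt3) was at 225, 223 and 221 FPKM and at 224, 223 and 226 FPKM, and Rasgrp2, the exchange factor that switches on Rap1, at 18.6, 18.8 and 18.2 FPKM and at 18.2, 18.9 and 19.3 FPKM. Neither was called, with 95% intervals of -0.04 to 0.05 and -0.06 to 0.10.

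The 7 members that missed the filter were 2 receptors, 4 granule contents and 1 cytoskeletal gene. Gp6, the platelet collagen receptor, was listed at 0 in all 6 libraries, and Thbs1, which encodes thrombospondin-1, at 0 in controls and at 0, 0.0347 and 0.0238 FPKM in irradiated HSCs. Clec1b, the receptor for podoplanin, was at 0.347, 0.158 and 0.356 FPKM and at 0.217, 0.405 and 0.119 FPKM, and Pdgfb, a growth factor of alpha granules, at 0.114, 0.165 and 0.132 FPKM and at 0.106, 0.0303 and 0.117 FPKM. In these genes the groups overlapped.

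Vwf, the ligand of the GPIb-IX-V complex and a marker of platelet-biased HSCs, stood just under the filter. It was at 0.857, 0.867 and 0.840 FPKM in controls and at 0.950, 1.25 and 0.982 FPKM in irradiated HSCs, without overlap. In the fit without a filter its log2 fold change was 0.15 (limma, adjusted p = 0.0904), so it was not called. F5, coagulation factor V, went the other way, from 0.564, 0.438 and 0.560 to 0.128, 0.173 and 0.159 FPKM. This is 3.40-fold lower by the ratio of means, and with the longest annotated transcript of 7430 bases it corresponds to about 53 to 62 fragments per control library and 15 to 19 per irradiated library. Tubb1, the tubulin of the platelet marginal band, was also lower, at 0.540, 0.429 and 0.381 FPKM against 0.221, 0.169 and 0.0348 FPKM, which corresponds to about 8 to 11 and 1 to 5 fragments. Without a filter on low values both were called (F5 log2 fold change -0.40, adjusted p = 0.000447; Tubb1 -0.35, adjusted p = 0.00679), in a fit of 15010 genes in which 23.5% fell. F5 starts within 2 kilobases of the end of Selp on chromosome 1 (164151838 to 164220277), and the neighbours moved in opposite directions.

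**Figure D4:**
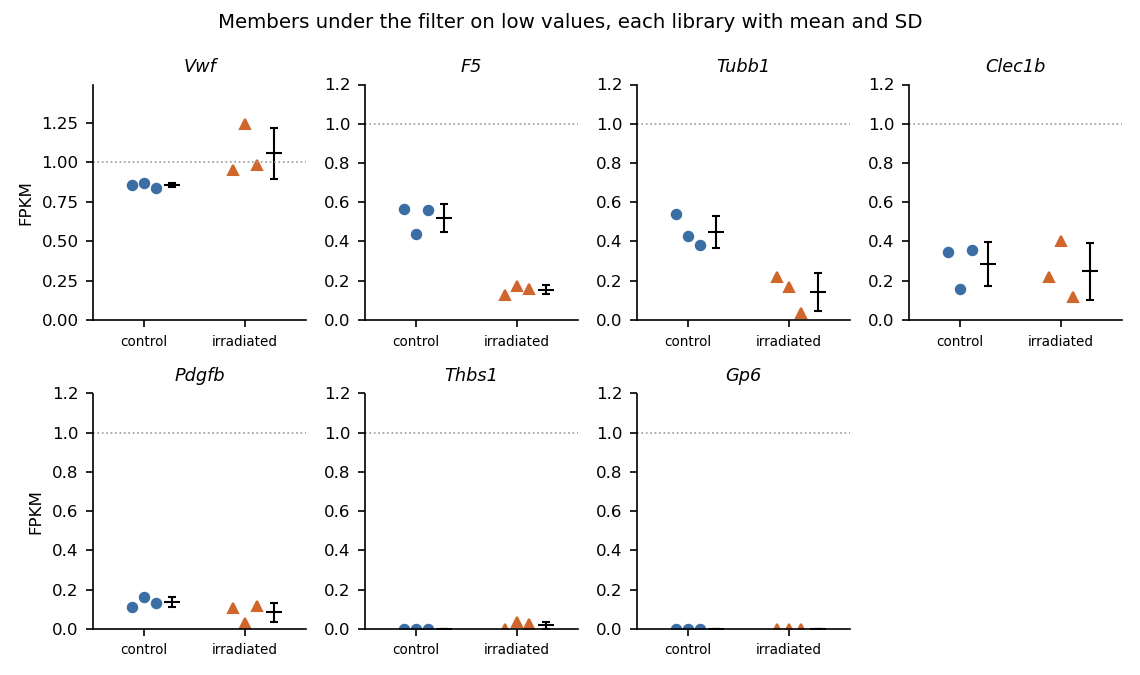
FPKM in each library (circles, control; triangles, irradiated; bars, mean ± SD of 3 libraries) for the 7 members under the filter; the dotted line marks 1 FPKM. F5 and Tubb1 are lower in every irradiated library, Vwf is higher in every one, and Gp6 is listed at 0 throughout.

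Other genes of megakaryocytes and platelets showed no common direction. A wider list of 173 genes had 168 in the tables and 134 tested, of which 39 rose and 44 fell, while 51 had no call (median change 0.02 on the log2 scale). The called share was 61.9%, against 54.7% of all tested genes, of which 25.8% rose and 28.9% fell. Without Jam3, Hpgds and Slc35d3, which reached 1 FPKM in the libraries of 1 group only, 38 of 131 rose and 42 fell. Of 20 tested transcription factors and thrombopoietin signalling genes 9 rose and 6 fell. Gata1, the factor that drives megakaryocyte and erythroid genes, rose from 12.7, 13.6 and 11.8 to 20.6, 23.5 and 21.04 FPKM (log2 fold change 0.73, adjusted p = 6.33e-06). Mef2c, a MADS-box factor of megakaryocytes and lymphoid cells, and Socs3, a feedback inhibitor of cytokine receptors, had log2 fold changes of -0.45 (adjusted p = 2.24e-06) and -0.40 (adjusted p = 9.21e-06).

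Platelet receptor signalling held more falls than rises, with 10 and 3 of 28 tested genes, where 28.9% of all tested genes fell and 25.8% rose. Tln1, which encodes the integrin activator talin, and Plcb3, a phospholipase C, rose by 0.22 and 0.38 on the log2 scale, whereas the phosphatase gene Ptpn6 and the adaptor gene Lcp2 had log2 fold changes of -0.15 and -0.19. Among other surface proteins 5 of 17 rose and 8 fell. Fcer1g, the signalling chain that pairs with the collagen receptor and with IgE receptors, fell from 135 to 82.8 FPKM (log2 fold change -0.69), Cd47 fell from 443 to 375 FPKM, and F11r, a junctional adhesion molecule, from 23.0 to 16.6 FPKM. Mfsd2b, a sphingosine-1-phosphate exporter of platelets and red cells, rose from 12.2 to 18.1 FPKM. In eicosanoid synthesis 4 of 6 genes fell and 1 rose. Thromboxane synthase (Tbxas1) fell from 29.9 to 25.5 FPKM, in the same direction as the thromboxane receptor, and Alox5ap from 256 to 237 FPKM, while Alox5 rose from 1.22 to 2.40 FPKM. Hpgds was at 2.09 and 0.759 FPKM and passed the filter through the control libraries alone, so that it had to differ.

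Granule formation and secretion genes rose in 8 of 27 cases and fell in 9, where 25.8% of all tested genes rose and 28.9% fell. Vipas39, a gene of alpha granule formation, and Vps16 had log2 fold changes of 0.25 and 0.19. Those of Vamp3 and Slc35d3, a dense granule gene, were -0.18 and -0.50. Slc35d3 passed the filter through the control libraries alone. Beside the same shares of all tested genes, cytoskeletal genes rose in 6 of 21 cases and fell in 4. The tubulin genes Tuba4a, Tubb4b and Tuba8 rose by 0.27, 0.21 and 0.63 and the tropomyosin gene Tpm4 had a log2 fold change of -0.61. Of 15 tested other granule contents and megakaryocyte genes 7 rose and 3 fell, with Clu at 0.63, Angpt1 at 0.28, Nrgn at 0.34 and Ehd3 at 0.61. The fibrinogen genes Fga and Fgb were listed at 0 in all 6 libraries.

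**Figure D5:**
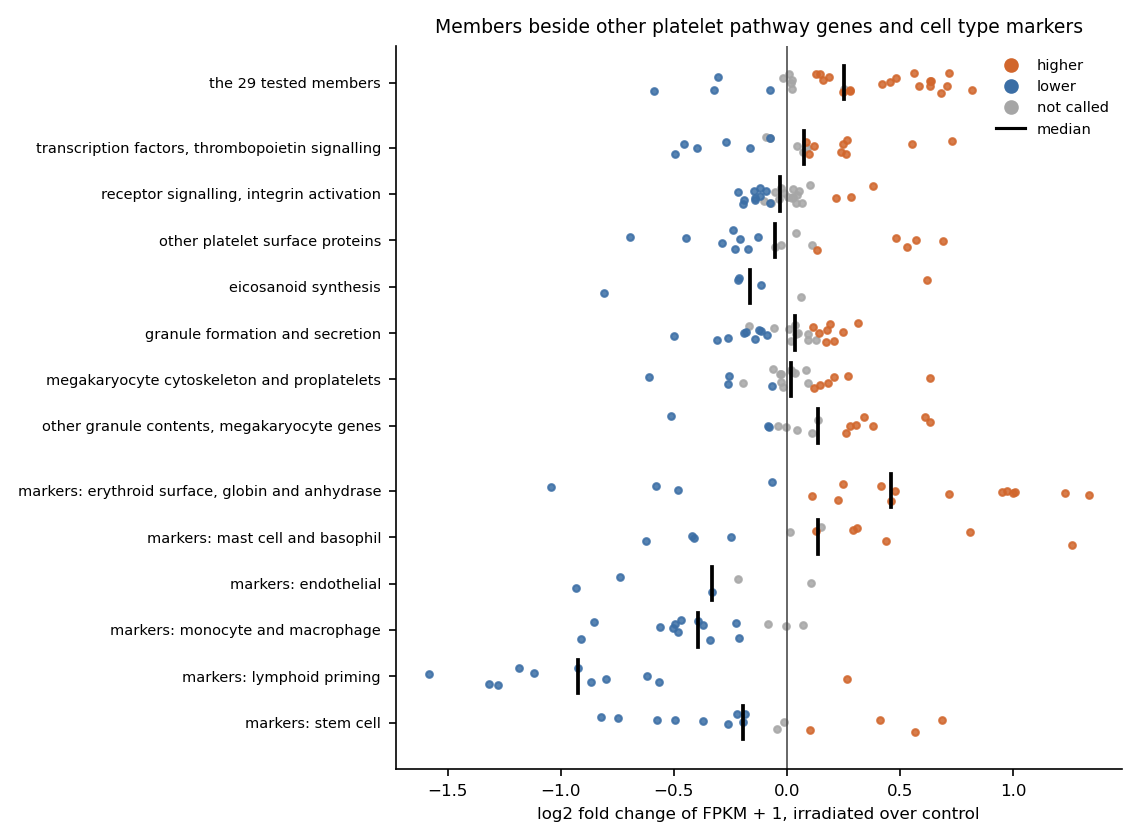
Log2 fold change of FPKM + 1, irradiated over control, for each tested gene of the member list, of 7 lists of other platelet pathway genes and of 6 lists of cell type markers (1 point per gene, coloured by call; black bar, median of the list). The median of the members is 0.25, that of the erythroid markers 0.46 and that of the lymphoid priming genes -0.92.

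RNA of other lineages moved as well, and 16 of the 36 members were listed here as also known from stem, endothelial, monocytic or mast cells. That list was not exhaustive, so members outside it are not thereby confined to platelets. Of the 12 listed members that were tested 9 rose and 1 fell (median 0.35). Of the 17 tested members outside the list 10 rose and 3 fell (median 0.25). Erythroid markers rose in 13 of 17 tested cases and fell in 4 (median log2 fold change 0.46), where 25.8% of all tested genes rose and 28.9% fell. Their summed level was 618 to 624 FPKM in controls and 655 to 661 FPKM in irradiated HSCs. Car2, which fell from 455 to 435 FPKM, made up most of that sum. Car1, an erythroid carbonic anhydrase, Epor, the erythropoietin receptor, and Ackr1 had log2 fold changes of 1.23, 0.97 and 1.34, and the globin gene Hbb-bs of -1.04.

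The counts that follow stand beside 25.8% of all tested genes that rose and 28.9% that fell. Mast cell and basophil markers rose in 6 of 12 cases and fell in 4 (median 0.14, summed level 379 to 394 against 441 to 457 FPKM). Fcer1a was at 1.26, Cpa3 at 0.29, Ccl4 at 0.44 and Ccl3 at -0.62. The mast cell protease gene Cma1 stayed under 1 FPKM. Endothelial markers fell in 3 of 5 tested cases (summed level 319 to 323 against 254 to 256 FPKM), namely Adgrl4, Emcn and Cldn5 at -0.33, -0.74 and -0.93. Adgrl4 alone, at 297 against 236 FPKM, made up most of that sum. Without Cldn5, which passed the filter through the control libraries alone, 2 of 4 fell. Cdh5, the cadherin that defines endothelium, was listed at 0 in 5 of 6 libraries. Monocyte and macrophage markers fell in 12 of 15 cases (summed level 939 to 947 against 783 to 804 FPKM), with Ctss, Itgam, Csf1r and Lyz2 at -0.85, -0.91, -0.56 and -0.22. Lymphoid priming genes fell in 10 of 11 cases (622 to 629 against 271 to 278 FPKM), with Dntt, Flt3, Blnk and Ly6d at -1.28, -0.92, -1.32 and -1.58, and stem cell markers fell in 9 and rose in 4 of 15 cases (1471 to 1493 against 1263 to 1279 FPKM), with Ly6a, Procr and Cd34 at -0.37, -0.57 and -0.22. The stem cell list holds Cd48, although the cells were sorted without CD48; without it 8 of 14 tested genes fell and 4 rose, with a summed level of 1074 to 1091 against 918 to 926 FPKM. Genes that reached the filter in 1 group only were also 1 erythroid, 1 monocyte, 2 lymphoid and 1 stem cell marker; without them 12 of 16 erythroid markers rose, 11 of 14 monocyte and 8 of 9 lymphoid genes fell, and 9 of 14 stem cell genes fell and 3 rose. Lyz2 (510 against 437 FPKM) and Dntt (430 against 176.5 FPKM) made up most of the monocyte and lymphoid sums. The part of all these cell types in the values of the members was not tested.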

How the data were processed

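RNA-seq of poly(A)-selected, strand-marked libraries from sorted HSCs was deposited as 1 FPKM value per gene symbol and library. The FPKM values were made by the authors with fastp, HISAT2 and StringTie on GRCm38 (mm10), per the submitters' processing notes. Versions, annotation and settings are not given in those sources, and the unit was inferred from the values. The 6 tables held 21878 entries, and 27 whose symbol had turned into a calendar date were left out. Library sums were 485166 to 489838 FPKM.

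The 10281 genes at 1 FPKM or more in at least 3 libraries entered a limma 3.58.1 fit on the log2(FPKM + 1) scale (trend, 2-sided, no replicate block, R 4.3.3), with Benjamini-Hochberg adjustment over all tested genes and a threshold of 0.05. Log2 fold changes are on this scale, which understates changes of low genes; folds without log2 are ratios of mean FPKM. The fit was tested on simulated data. Depth came from the spacing of low values in genes with 1 transcript: 24.1% to 29.1% of low values lay within 0.01 of a whole multiple, too few to recover reads, so fragment numbers are approximate and cover counting error only. No 2 libraries were identical. Squared differences between replicates were, at the median, 1.27 to 1.76 times those of counting noise. This covered 781 genes with 1 transcript, in approximate fragments. The labels do not say that libraries came from separate mice, so the p-values rest on the spread among these libraries alone, and that spread may be technical.

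Members and lists were chosen with earlier results of these data known. All members are named; of each other list, the 4 genes with the smallest p are named, apart from results not reported here, and Cdh5, Cma1, Fga, Fgb, P2ry1, Hlf, Mecom, Fgd5, the sorted markers and genes overlapping members were added after their values were seen. Gene positions are from GENCODE M21 (GRCm38) and promoter sequences from RefSeq (GRCm38.p6). Pseudocounts, filters, scalings, the trend, a replicate block and each library were varied. Counts without genes that reached the filter in 1 group only, and without Cd48, were added after the data were seen, as was the naming of Jam3 and Car2.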

Additional observations from a re-analysis of the deposited data

How the results depend on the processing

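Of the 23 members called, 21 stayed past the threshold with the same direction under each of the 15 alternatives in which they could be fitted; Plek and Gng11 did not, and no called member changed sign. With a filter of 5 FPKM, which left 19 members, 11 rose in all, 5 of them receptors, 3 of the granule membrane group and 1 of the signalling group. Without a filter 1 granule content (F5) fell and 2 signalling genes did (Plek and Tubb1). The number of signalling genes that fell was 0 with scaling to a common median, 0 without the trend and 0 with the replicate block, and 0 to 1 when 1 library was left out; the number that rose was then 1 to 2. The members' median log2 fold change was 0.31 with a pseudocount of 0.1, 0.14 with one of 5, 0.16 without a filter, 0.15 with a filter of 5 FPKM, 0.28 with scaling to a sum of 1000000 (which let Vwf pass the filter), 0.28 with quantile normalization and 0.25 to 0.29 without 1 library. The difference of the Itga2b to Itgb3 log2 ratio was -0.0887 with a pseudocount of 0.1 and -0.0086 with scaling to a sum of 1000000. With a pseudocount of 5 it was 0.3131, and without irradiated replicate 1 it was 0.1028. Larger pseudocounts shrink changes of low genes by construction; the cause of the other shifts was not tested. Scaling to a common median moved the median of all genes from -0.01 to 0.02, and the share of rises among called genes from 47.1% to 54.1%. Libraries of the same replicate number did not deviate together (correlations of 0.009, -0.031 and -0.049, other pairs -0.015 to 0.045). No pairing by number was thus seen, though counting noise may hide a weak one. With the block in the limma fit 20 members rose and 3 fell, Ppbp gaining a call (adjusted p = 0.0471) and Plek losing it. Of all genes 2539 rose and 2840 fell with the block. Depth limits what can be seen below about 1 FPKM.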
